A study of Rattus norvegicus with 11 samples.

Results

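A group of 6 genes of the serum response was followed across rat adrenal tissue: Ccn1 and Ccn2, which encode secreted matricellular proteins, Adamts1 and Adamts4, which encode secreted metalloproteinases, Ankrd1, which encodes a nuclear ankyrin repeat protein, and Srf, which encodes the serum response factor. They were taken as the probe sets annotated with 1 of these gene symbols. All 6 of the 6 listed genes were found, each with 1 such probe set, among 14506 genes named on the array. The genes were chosen with earlier results on lesions and normal glands known, so their differences between lesions and normal glands are given as a description, without a test. The 11 Affymetrix arrays, 1 per sample in 1 colour, cover 7 adrenal lesions and 4 normal adrenal glands, each labelled as a biological replicate and taken here as a different animal. The lesions came from untreated rats heterozygous for the p27Kip1 mutation (gene written Cdknb1 in the labels, Cdkn1b on the array), 4 at 13 months (2 females, 2 males), 2 males at 21 months and 1 female at 23 months. The normal glands came from untreated wild type rats, a female and a male at 12 months and a female and a male at 24 months. All rats shared the strain background Sprague–Dawley white eye/Wistar–Kyoto. Every lesion came from a heterozygous rat and every normal gland from a wild type rat. In all comparisons of lesions with normal glands, lesion and genotype can therefore not be told apart. The labels do not say what kind of lesion each was or how much normal gland it held.

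Serum, growth factors and stretch switch on a set of genes within minutes to hours of reaching a cell, and Ccn1 and Ccn2 are classic members of that set. SRF binds the CArG box of such genes, together with ternary complex factors downstream of MAP kinases or with myocardin-related factors that respond to actin assembly. Ccn1, Ccn2 and Ankrd1 are also widely used as readouts of YAP and TAZ, which act through the TEAD factors of the Hippo pathway. CCN proteins sit in the extracellular matrix and bind integrins, and ADAMTS1 and ADAMTS4 cleave proteoglycans of that matrix such as versican and aggrecan.

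The start regions of 4 of the genes are shown because they hold matches to motifs for SRF, TEAD or cAMP-responsive factors. Whether such motifs bear on the levels in lesions and normal glands was not tested. Promoter entries were found in RefSeq (build GRCr8) for 5 of the 6 genes, all except Ankrd1. Each sequence below gives the 250 bases before the start of transcription, 5′ to 3′ on the gene's strand. For Srf 224 bases are given, since the next 26 lie within the annotated span of the gene. Capitals mark CArG boxes, the TEAD motif CATTCC and the half-site TGACG of cAMP-responsive elements, the last 2 on either strand.
Ccn1 (chr2:237225690-237225939, minus strand): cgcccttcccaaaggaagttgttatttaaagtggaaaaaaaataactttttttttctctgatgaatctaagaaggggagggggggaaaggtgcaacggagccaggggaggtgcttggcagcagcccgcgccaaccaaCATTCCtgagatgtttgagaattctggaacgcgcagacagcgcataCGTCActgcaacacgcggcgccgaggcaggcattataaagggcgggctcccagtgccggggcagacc
Ccn2 (chr1:22624615-22624864, minus strand): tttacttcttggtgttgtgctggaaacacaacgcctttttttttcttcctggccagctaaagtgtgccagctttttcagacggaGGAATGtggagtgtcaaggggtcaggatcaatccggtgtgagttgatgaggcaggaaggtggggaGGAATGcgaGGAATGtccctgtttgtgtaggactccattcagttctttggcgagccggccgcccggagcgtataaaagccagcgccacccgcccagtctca
Adamts1 (chr11:38427385-38427634, minus strand): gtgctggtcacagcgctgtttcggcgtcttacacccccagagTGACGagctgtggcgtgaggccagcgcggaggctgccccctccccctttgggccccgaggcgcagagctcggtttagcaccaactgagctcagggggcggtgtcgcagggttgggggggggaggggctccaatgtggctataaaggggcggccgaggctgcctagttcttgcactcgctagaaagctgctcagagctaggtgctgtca
Srf (chr9:21923826-21924049, plus strand): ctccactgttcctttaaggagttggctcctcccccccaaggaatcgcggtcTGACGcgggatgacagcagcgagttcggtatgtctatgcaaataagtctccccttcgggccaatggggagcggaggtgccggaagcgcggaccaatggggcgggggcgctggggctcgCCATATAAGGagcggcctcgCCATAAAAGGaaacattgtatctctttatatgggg

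Ccn2 held 3 matches to CATTCC, at 166 to 161, 101 to 96 and 92 to 87 bases before the start, and Ccn1 held 1, at 113 to 108 bases. Of 33469 rat promoter windows of 250 bases, 12.1% held at least 1 such match and 0.0807% held 3 or more. Srf held 2 CArG boxes, at 81 to 72 and 61 to 52 bases before its start, against 1.5% of windows with any and 0.0209% with 2 or more. Neither Ccn1 nor Adamts1 nor Ccn2 held a CArG box in this window. TGACG stood at 67 to 63 bases in Ccn1, 208 to 204 in Adamts1 and 199 to 195 in Srf, and 18.2% of windows held it. The AP-1 motif TGANTCA, in 6.34% of windows, matched in none of the 5, and Adamts4 matched none of the motifs searched. A TATAAA motif on the gene's strand, in 8.06% of windows, lay at 34 to 29 bases in Ccn1, 31 to 26 in Ccn2 and 70 to 65 in Adamts1. CATTCC and TGACG were searched on both strands, the CArG box and TGANTCA read the same on both, and no 2 matches of different motifs overlapped. A match is a run of letters and shows no binding.

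**Figure D1:**
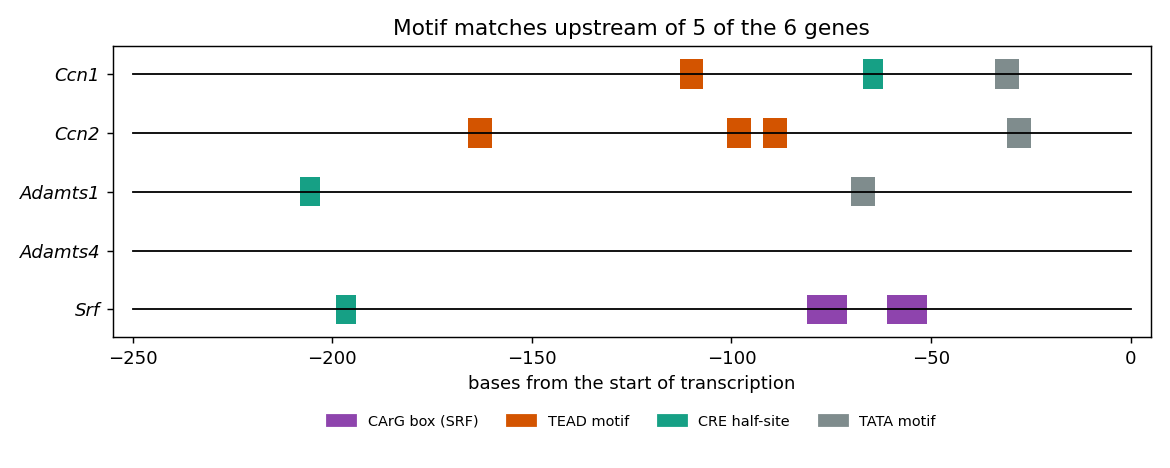
Matches of 4 motifs in the 250 bases before the start of transcription of 5 genes, as coloured boxes at their distance from the start (x axis, in bases). The 3 TEAD motifs lie in Ccn2, 1 lies in Ccn1, and both CArG boxes lie in Srf.

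All levels are log2 values as the authors summarised them with robust multi-array averaging (RMA), so a difference of 1 is a 2-fold change. The median of an array was 4.91 to 5.01, and any pair of arrays had a correlation of 0.960 to 0.992 over all 29214 probe sets. Precision is limited by the number of arrays. Defining genes of the gland were bright on average on every array. The cortical gene Cyp11b2 was less bright, at 5.88 to 8.48 in lesions and 6.88 to 8.41 in normal glands. The 6 measured chromaffin markers averaged 10.7 to 11.6 in lesions and 11.1 to 11.5 in normal glands. The 6 cortical markers averaged 10.7 to 11.1 in normal glands and 9.57 to 11.3 in lesions, the lowest in lesion replicate 1, which stood apart from the other lesions. Without that lesion the differences given below were -2.10 for Ccn1 and -1.41 for Adamts1. These are whole tissue samples, so fewer cells of a type and less RNA per cell cannot be told apart.

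Ccn1 and Adamts1 were lower in every lesion than in every normal gland, while Ccn2, Adamts4, Ankrd1 and Srf overlapped between the groups. Ccn1 stood 4.12-fold lower and Adamts1 2.78-fold lower, and the other 4 differed by 1.02-fold to 1.14-fold. Over all probe sets, 0.695% had every lesion below every normal gland, 0.479% had every lesion above, and 0.209% were at least 2-fold lower. By limma 0.065% were lower at an adjusted p under 0.05 (19 probe sets, or 5 without normal replicate 3, 11 without lesion replicate 7) and 0% higher. The 6 genes were picked with this comparison in view, so nothing is read from their count of 2 against these shares.

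**Figure D2:**
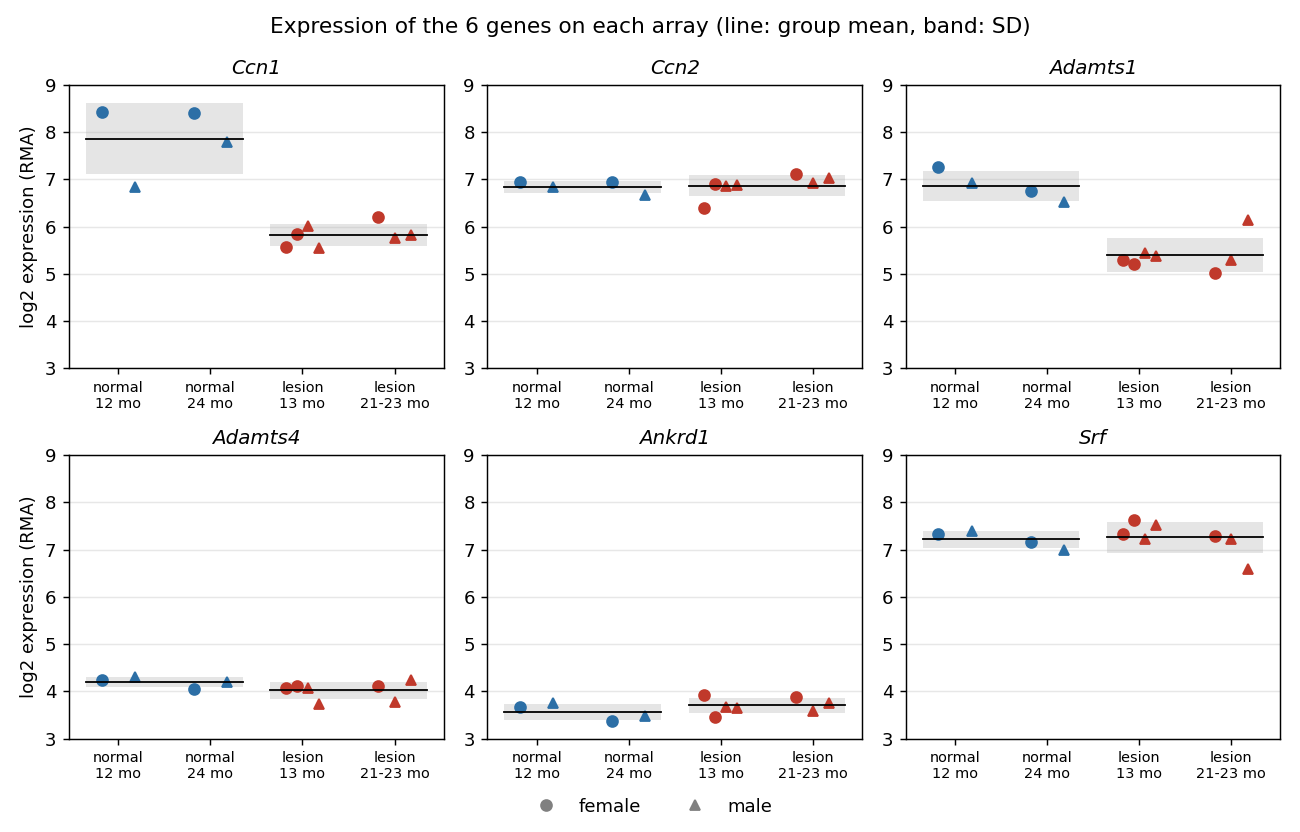
Log2 expression (y axis) of the 6 genes on each of the 11 arrays, by group and age (x axis), with females as circles and males as triangles. The black line is the mean and the grey band the SD of a group. The 7 lesions lie between 5.54 and 6.20 for Ccn1 and the 4 normal glands between 6.83 and 8.43, while both groups overlap for Ccn2, Adamts4, Ankrd1 and Srf.

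Ccn1 encodes a secreted integrin ligand that acts in adhesion and vessel growth (probe set 10827231). In the normal glands it stood at 8.41 (replicate 1, female, 24 months), 7.79 (replicate 2, male, 24 months), 8.43 (replicate 3, female, 12 months) and 6.83 (replicate 4, male, 12 months). In the 7 lesions the lowest log2 level was 5.54, the median 5.83 and the highest 6.20. The lesions lay close together and the normal glands were spread widely, with both females near the same level and both males below them. A gap of 0.63 separated the highest lesion from the lowest normal gland. Lesions averaged 5.82 ± 0.23 (SD, n = 7) against 7.86 ± 0.75 for normal glands (SD, n = 4), a difference of -2.04 on the log2 scale, or 4.12-fold. The difference was -1.86 to -2.39 when each array was left out in turn. It was -1.53 among males and -2.55 among females.

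Ordered by mean, Ccn1 stood at 8.10 ± 0.44 in normal glands of 24 months (SD, n = 2), at 7.63 ± 1.13 in normal glands of 12 months (SD, n = 2), at 5.93 ± 0.24 in lesions of 21 to 23 months (SD, n = 3) and at 5.74 ± 0.23 in lesions of 13 months (SD, n = 4). The normal glands of both ages overlapped in range, as did the lesions of both ages, and no normal gland of either age overlapped a lesion.

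Ccn2, a relative of Ccn1 and a mediator of fibrosis downstream of TGF-beta (probe set 10717233), did not share this pattern. It stood at 6.94, 6.67, 6.94 and 6.84 in normal replicates 1 to 4, and at 6.39 (lowest), 6.91 (median) and 7.11 (highest) in the lesions. All normal glands lay inside the range of the lesions. The means were 6.87 ± 0.23 (SD, n = 7) and 6.84 ± 0.125 (SD, n = 4), a difference of 0.03, or 1.02-fold. Ccn2, like Ccn1, is a textbook YAP and TAZ target, and it has more matches to the TEAD motif in the window shown above. These matches show no binding, and what made Ccn1 and Ccn2 differ was not tested.

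Adamts1 encodes a secreted metalloproteinase with thrombospondin repeats that cleaves versican and restrains vessel growth (probe set 10752839). Its log2 level in normal replicates 1 to 4 was 6.75, 6.52, 7.27 and 6.93. In the lesions it was 5.03 at the lowest, 5.29 at the median and 6.14 at the highest. The highest lesion was replicate 3, a male of 21 months, and the next was 5.44, so 6 of the 7 lesions lay within a narrow band. The means were 5.40 ± 0.35 (SD, n = 7) and 6.87 ± 0.32 (SD, n = 4), a difference of -1.47, or 2.78-fold. Left out in turn, single arrays moved it between -1.34 and -1.60. The lesions remained below the normal glands in each sex, by -1.16 in males and -1.84 in females.

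Adamts4, the aggrecanase of the same family (probe set 10765534), was dim, with only 27.0% to 40.2% of the probe sets of an array at or below it. It stood at 4.06, 4.20, 4.25 and 4.30 in normal replicates 1 to 4 and at 3.74 (lowest), 4.08 (median) and 4.24 (highest) in lesions, with the groups overlapping. The difference was -0.18, or 1.14-fold.

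Ankrd1, which encodes a cofactor that muscle and injured tissue switch on (probe set 10729834), was also dim, with 18.2% to 32.5% of the probe sets of an array at or below it. It stood at 3.38, 3.47, 3.67 and 3.75 in normal replicates 1 to 4 and at 3.45 (lowest), 3.66 (median) and 3.93 (highest) in lesions, again with overlap. The difference was 0.13, or 1.09-fold. Signal over background was not analysed here for either gene.

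Srf itself (probe set 10921550) was at 7.16, 6.99, 7.33 and 7.38 in normal replicates 1 to 4. In the lesions it was 6.60 at the lowest, 7.29 at the median and 7.62 at the highest. The lowest was again lesion replicate 3, and the other 6 lesions, from 7.21 upwards, lay around the normal glands. The means were 7.26 ± 0.33 (SD, n = 7) and 7.21 ± 0.18 (SD, n = 4), a difference of 0.04, or 1.03-fold.

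Age and sex were not used to choose the genes and were tested with limma over all 29214 probe sets. None of the 6 genes was called in any of the 5 comparisons. Between older (21 to 23 months) and younger (13 months) lesions, limma called 0.0103% of all probe sets. Among the 6 genes there were 0 calls, with 1 at an unadjusted p under 0.05 (9.6% of all probe sets). That gene was Srf, at 7.04 ± 0.38 in older (SD, n = 3) and 7.42 ± 0.18 in younger lesions (SD, n = 4), a difference of -0.39 (95% CI -0.77 to -0.00125, limma adjusted p = 0.519). It was -0.17 without lesion replicate 3 and -0.51 without lesion replicate 1. Ccn2 was higher in older lesions by 0.25 (95% CI -0.06 to 0.57, limma adjusted p = 0.600). Each older lesion, at 6.92 to 7.11, lay above each younger lesion, at 6.39 to 6.91, as in 3.04% of all probe sets, while 4.55% had each older lesion below each younger one. The difference was 0.13 without lesion replicate 4, the lowest lesion for Ccn2. Ccn1 differed by 0.18 (95% CI -0.54 to 0.91) and Adamts1 by 0.16 (95% CI -0.35 to 0.67), and both ages overlapped. The Adamts1 difference was -0.17 without lesion replicate 3 and 0.39 without lesion replicate 1, and that of Ccn1 0.05 without lesion replicate 1.

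In normal glands, 24 against 12 months, limma called 0% of probe sets (2.87% at an unadjusted p under 0.05) and 0 of the 6 genes, with 0 at an unadjusted p under 0.05. Adamts1 was lower in both glands of 24 months than in both of 12 months, by -0.47 (95% CI -1.13 to 0.20). Ankrd1 and Srf differed by -0.28 (95% CI -0.65 to 0.08) and -0.29 (95% CI -0.79 to 0.22), also without overlap between the ages, and Adamts4 by -0.14 (95% CI -0.54 to 0.25), likewise without overlap. Of all probe sets, 13.1% had both older normal glands below both younger ones and 15.6% had both above, so such a separation is common with 2 glands per age. Ccn1 differed by 0.47 (95% CI -0.48 to 1.42), which was -0.32 without normal replicate 4 and 1.27 without normal replicate 3. With 2 glands per age the intervals are wide. The test of whether the age difference itself differed between lesions and normal glands called 0% of probe sets (2.83% at an unadjusted p under 0.05) and 0 of the 6 genes by limma, with 0 at an unadjusted p under 0.05. Its widest interval was that of Ccn1, -0.29 (95% CI -1.49 to 0.91). Its sign depended on single arrays, with -1.09 without normal replicate 3 and 0.51 without normal replicate 4. That of Srf also turned, from -0.10 to 0.12 without lesion replicate 3, and that of Adamts1 was 0.63 with all arrays and 0.30 without lesion replicate 3.

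Between males and females limma called 0% of probe sets (3.95% at an unadjusted p under 0.05) and 0 of the 6 genes, with 0 at an unadjusted p under 0.05. Ccn1 was lower in males by -0.46 (95% CI -0.96 to 0.04, limma adjusted p = 0.999), and by -0.24 without normal replicate 4. The test of whether the sex difference differed between lesions and normal glands also called 0% (6.6% at an unadjusted p under 0.05) and 0 of the 6 genes, with 1 at an unadjusted p under 0.05. That gene was Ccn1, whose male minus female difference in lesions was above that in normal glands by 1.02 (95% CI 0.19 to 1.86, limma adjusted p = 0.684). Males averaged below females in both groups, in lesions at 5.79 against 5.87. The normal females stood at 8.42 ± 0.01 (SD, n = 2) and the normal males at 7.31 ± 0.68 (SD, n = 2). The lesions of both sexes were alike in range, at 5.58 to 6.20 in females and 5.54 to 6.02 in males. This difference was 0.54 without normal replicate 4. Adamts1 differed in the same direction, by 0.67 (95% CI -0.13 to 1.48).

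**Figure D3:**
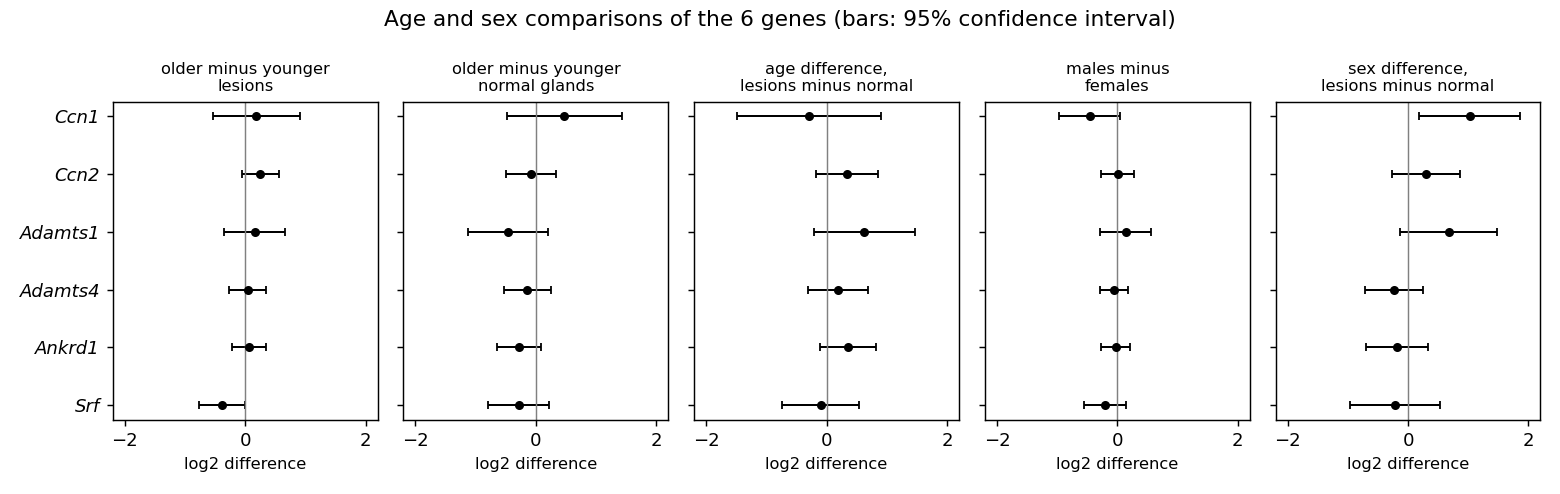
Log2 differences of the 6 genes (points) with 95% confidence intervals (bars) in 5 limma comparisons of age and sex. The interval of Ccn1 in the last panel, 0.19 to 1.86, and that of Srf in the first, -0.77 to -0.00125, leave out 0, and none of the adjusted p-values was under 0.05.

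Correlations between the 6 genes were taken from array to array, once the group means were taken out. Over the 11 arrays, the correlation of deviations from the group means was 0.37 for Ccn1 and Ccn2, 0.03 for Ccn1 and Adamts1, and -0.03 for Ccn1 and Adamts4. It ran from -0.50 for Adamts1 and Srf to 0.44 for Adamts4 and Ankrd1. Over the 7 lesions alone the values differed, at 0.62 for Ccn1 and Ccn2, 0.50 for Ccn1 and Adamts4, -0.17 for Ccn1 and Adamts1, and -0.84 for Adamts1 and Srf. These are descriptions over arrays that share a normalization, and lesion replicate 3 was the highest lesion for Adamts1 and the lowest for Srf.

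The genes whose deviations were most like those of Ccn1 over the 11 arrays were Xpo7 (r = 0.939), Rc3h2 (0.930), Osbpl1a (0.922), Pecam1 (0.921), Cast (0.918) and Tjp1 (0.907). Of these, Pecam1 encodes an adhesion molecule of endothelial cells and Tjp1 a scaffold of tight junctions. Xpo7 encodes a nuclear transport receptor, and Cast the inhibitor of the calpain proteases. Over the 7 lesions alone the correlations were 0.544 to 0.816, and without normal replicate 4 they were 0.792 to 0.904. They are the highest of 14506 genes, so large values come with the choice. None of the 6 shared the group difference of Ccn1, and their differences between lesions and normal glands ran from -0.23 to 0.10, none called by limma (adjusted p = 0.759 to 0.958).

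Pecam1 stood at 8.23, 7.94, 8.44 and 7.54 in normal replicates 1 to 4 and from 7.86 to 8.33 in lesions. Both groups covered a like range of Pecam1, while Ccn1 lay lower in lesions throughout that range. The 8 measured endothelial markers averaged 7.25 to 7.70 in lesions and 7.23 to 7.59 in normal glands, with 0 called in either direction. The 9 pericyte and smooth muscle markers averaged 6.24 to 7.10 and 6.53 to 6.90, and the 9 fibroblast and capsule markers 5.71 to 5.91 and 5.81 to 5.84. The 8 macrophage markers averaged 7.25 to 7.87 and 7.26 to 7.76. None of these markers was called by limma in either direction, and all 4 list averages overlapped between the groups. Whether the share of these cell types bears on the differences of Ccn1 and Adamts1 was not tested.

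**Figure D4:**
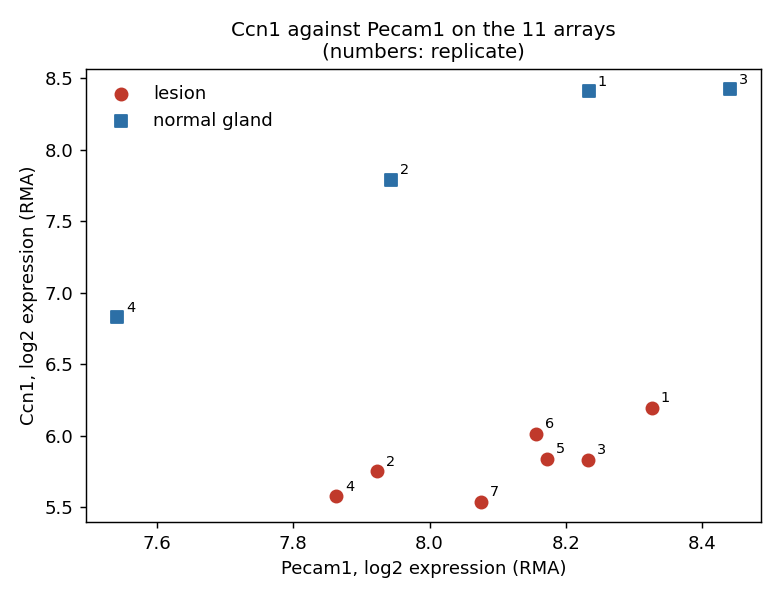
Log2 level of Ccn1 (y axis) against that of the endothelial gene Pecam1 (x axis) on the 11 arrays, numbered by replicate. Pecam1 runs from 7.86 to 8.33 in lesions and from 7.54 to 8.44 in normal glands, and the 7 lesions lie below the 4 normal glands in Ccn1.

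Markers of cells that could be carried along with a gland were also read. The 9 striated muscle markers, relevant to Ankrd1, averaged 4.46 to 4.67 in lesions and 4.52 to 4.76 in normal glands, and 6 of the 9 lay below the array median on every array. The 7 adipocyte markers were all above 0 in their lesion difference and averaged 5.17 to 6.69 in lesions and 5.18 to 5.83 in normal glands, and the 6 lymphocyte markers 4.12 to 5.47 and 4.38 to 4.68. None of these was called. Their part in the differences of Ccn1 and Adamts1 was not tested.

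Other genes of the pathways were read from 12 lists, with the 6 genes themselves left out. Of 136 other genes measured, 3 fell in lesions and 0 rose by limma, against 0.124% and 0% of all 14506 genes. All 3 were immediate early genes, and the median difference over the 136 genes was -0.05, against -0.00296 over all genes. The lists were chosen with earlier results of these data known. Nothing is therefore read from their counts against the shares over all genes, here or below.

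The 12 measured immediate early targets of SRF and its ternary complex partners gave these 3 calls. Egr1, a zinc-finger transcription factor, fell by 2.89 on the log2 scale (SE 0.17, limma adjusted p = 2.33e-05). The AP-1 subunit gene Fos fell by 2.10 (SE 0.31, limma adjusted p = 0.0307) and Junb, which encodes its partner, fell by 1.98 (SE 0.27, limma adjusted p = 0.0167). The lesions and normal glands stood at 7.07 to 7.56 and 9.68 to 10.7 for Egr1, at 4.71 to 5.18 and 5.80 to 7.94 for Fos, and at 5.28 to 6.45 and 7.13 to 8.48 for Junb, with no overlap. The median of this list was -0.75, with 9 of 12 below 0 and 5 at least 2-fold lower, against 0.317% of all genes. Since the list was chosen with earlier results known, nothing is read from these counts against that share. Over the 9 genes of this list left after dropping the dimmer probe sets the median was -1.88. Egr1 kept its call without each array in turn (limma adjusted p = 1.4e-05 to 0.000388). Fos lost its call without any 1 of lesion replicates 2 to 7 or normal replicates 1 and 3 (limma adjusted p = 0.0665 to 0.195). Junb lost it without lesion replicates 3 or 7 or normal replicates 1, 3 or 4 (limma adjusted p = 0.0501 to 0.0836).

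The cytoskeletal targets of SRF and myocardin-related factors, genes of actin filaments and their contacts, gave 0 calls among 23 measured genes, with 11 below and 12 above 0 and a median of 0.00268. Tagln2 (0.43, 95% CI 0.02 to 0.84), Myl9 (-0.41, 95% CI -0.71 to -0.12) and Fhl1 (-0.40, 95% CI -0.82 to 0.02) had the largest differences. SRF cofactors and the actin signalling genes upstream of them gave 0 calls among 15 with a median of 0.01. Limk1, a kinase that stabilises actin filaments, stood at 6.86 to 7.40 in lesions and 6.47 to 6.82 in normal glands, with no overlap (0.50, 95% CI 0.24 to 0.76, limma adjusted p = 0.258).

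YAP and TAZ targets other than Ccn1, Ccn2 and Ankrd1 gave 0 calls among 15, with 13 below and 2 above 0 and a median of -0.14. Over all genes 51% were below 0. The largest differences were those of Amotl2, an angiomotin that binds YAP (-0.99, 95% CI -1.59 to -0.39, limma adjusted p = 0.289), Nuak2 (-0.49, 95% CI -0.98 to -0.00380) and Igfbp3 (0.48, 95% CI -0.00937 to 0.96). Amotl2 stood at 5.14 to 6.28 in lesions and 6.19 to 7.53 in normal glands. The Hippo pathway genes themselves gave 0 calls among 13, with a median of -0.01. Nf2, which encodes the upstream tumour suppressor merlin (-0.52, 95% CI -1.10 to 0.05), Vgll4, a competitor of YAP for TEAD (-0.42, 95% CI -0.74 to -0.10), and Yap1 (0.22, 95% CI -0.32 to 0.76) differed most.

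Within the CCN family, Ccn3, which often opposes Ccn1 and Ccn2, was lower in lesions by -0.75 (95% CI -1.19 to -0.31, limma adjusted p = 0.262). It stood at 5.88 to 7.05 in lesions and 6.76 to 7.60 in normal glands. Ccn5 differed by -0.04 (95% CI -0.29 to 0.21) and Ccn4 by -0.00536 (95% CI -0.24 to 0.23), so 0 of the 3 were called. Of the 11 measured CCN receptor genes 0 were called, with a median of 0.00268. The integrin subunit gene Itga6, whose product binds CCN1 with its beta partner, differed most (-0.75, 95% CI -1.28 to -0.21, limma adjusted p = 0.429), then Itga2 (0.26, 95% CI -0.24 to 0.76) and Lrp1 (-0.23, 95% CI -0.53 to 0.08).

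The 9 other ADAMTS genes measured gave 0 calls and a median of 0.00882. Adamts3 (-0.50, 95% CI -1.02 to 0.02), the versican and aggrecan protease Adamts5 (-0.37, 95% CI -0.75 to -0.00209) and Adamts9 (0.29, 95% CI -0.02 to 0.59) had the largest differences. The substrates and inhibitors of these proteases gave 0 calls among 11 and a median of -0.12. Timp4 (0.37, 95% CI -0.19 to 0.94), Timp2 (-0.35, 95% CI -0.68 to -0.02) and Tfpi2 (-0.27, 95% CI -0.57 to 0.03) led that list. Other matricellular proteins gave 0 calls among 12 and a median of -0.13, led by osteopontin, Spp1 (-1.34, 95% CI -2.55 to -0.13, limma adjusted p = 0.602). Sparcl1 (0.79, 95% CI -0.82 to 2.41) and Tnr (-0.37, 95% CI -1.17 to 0.42) followed it. Sparcl1 was at 0.26 without lesion replicate 1, and Tnr ran from -0.66 without normal replicate 4 to -0.18 without normal replicate 3.

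TGF-beta signalling genes gave 0 calls among 11 and a median of -0.08, led by the coreceptor gene Tgfbr3 (-0.46, 95% CI -1.03 to 0.10), Ltbp1 (-0.40, 95% CI -0.96 to 0.17) and Tgfb3 (0.28, 95% CI -0.31 to 0.87). Tgfb3 was at -0.03 and Ltbp1 at -0.63 without normal replicate 4, and Tgfbr3 at -0.28 without lesion replicate 1. The list of Ankrd1 partners and muscle ankyrin repeat genes gave 0 calls among 5 and a median of 0.03. Ankrd2 (0.14, 95% CI -0.09 to 0.37), Ybx1 (0.10, 95% CI -0.11 to 0.30) and Myom1 (-0.03, 95% CI -0.28 to 0.21) were in front. At an unadjusted p under 0.05, 20 of the 136 genes were lower and 2 higher, against 3.92% and 3.79% of all probe sets. These shares include probe sets without a gene symbol, while the 136 are named genes, so the sets are unlike. Of the other genes named from these lists, none of them called, leaving out a single array moved the differences of Adamts3, Adamts9, Ankrd2, Fhl1, Itga2, Lrp1, Nf2, Tfpi2, Timp4, Yap1 and Ybx1 by over 1.5 times, and turned the sign for Ccn4, Ccn5 and Myom1.

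**Figure D5:**
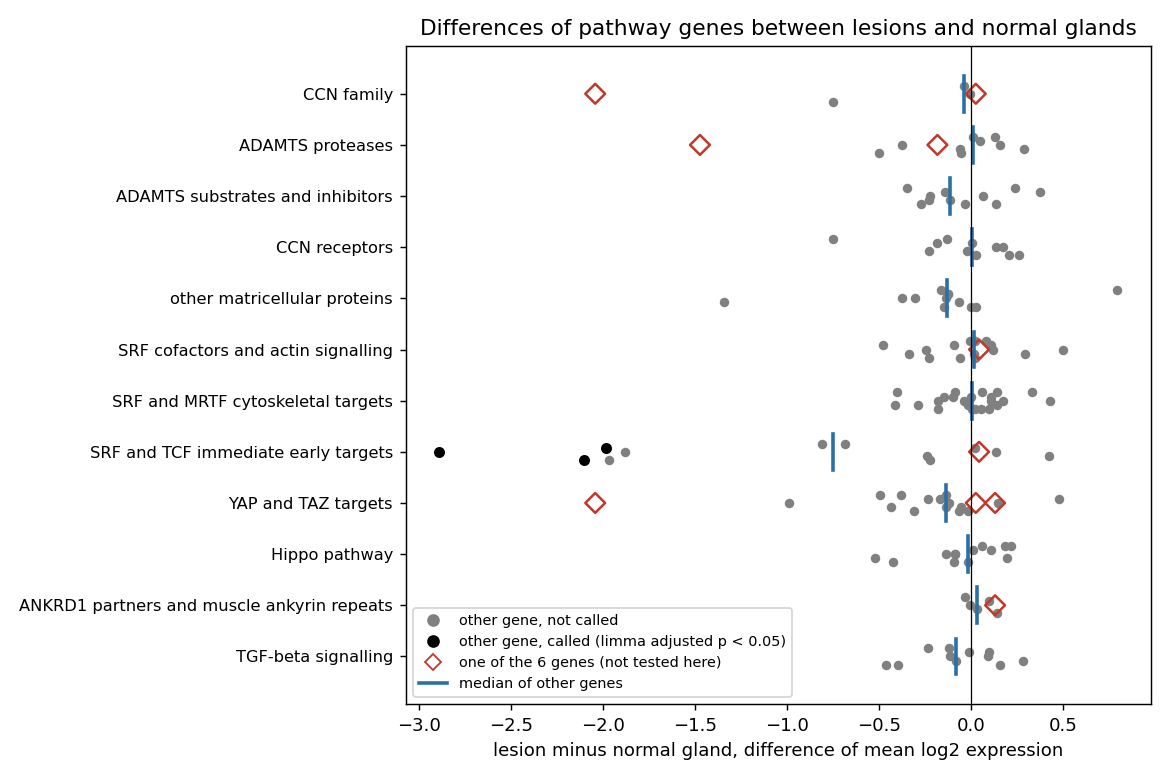
Difference in mean log2 expression between lesions and normal glands (x axis) for the measured genes of 12 pathway lists (y axis), each point a gene. Black points are the 3 genes called by limma (Egr1, Fos and Junb), red diamonds the 6 genes described here without a test, and blue bars the median of the other genes. Ccn1 at -2.04 and Adamts1 at -1.47 lie outside the range of the other genes of the CCN, ADAMTS, YAP and TAZ lists. The 6 genes were picked with this comparison in view, so nothing is read from that position. In the immediate early list, Egr1 at -2.89 and Fos at -2.10 lie lower than Ccn1.

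Within groups, neither Ccn1 nor Adamts1 moved with the immediate early list as a whole. The median correlation of deviations over the 11 arrays was 0.0123 for Ccn1 with the 12 other immediate early genes and 0.0746 for Adamts1, against -0.0100 and -0.00133 over all genes. The highest for Ccn1 was that of Dusp1, a phosphatase of MAP kinases (0.815), and the highest for Adamts1 that of Ier2 (0.536). Between lesions and normal glands Dusp1 differed by -1.97 (limma adjusted p = 0.0729) and Ier2 by -0.81 (limma adjusted p = 0.228). Neither was called, and both had every lesion below every normal gland, as in 0.695% of all probe sets. With the 15 YAP and TAZ targets the medians were -0.0742 and 0.0947.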

How the data were processed

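The deposited values are log2 expression levels. Per the submitters' processing notes, the authors used RMA and Affymetrix Expression Console 1.3.0.187. No source used here names a genome build for the probes. The values, from 2.10 to 13.5, were used without further normalization. RNA was amplified before labelling, per the labels' protocols. Of 29214 probe sets, 15310 carried 1 gene symbol in the platform annotation, 323 several and 13581 none listed. Where a gene had several, the brightest on average was used.

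Two-sided tests were run in limma 3.58.1 (lmFit, eBayes, R 4.3.3) over all probe sets with Benjamini-Hochberg adjustment, called at an adjusted p under 0.05. Lesions against normal glands used group alone, age a model of group by age class, and sex a model with group. The genes, lists and tests were chosen with earlier results of these data known. Named were the 6 genes, the 6 most like Ccn1, and per list the called genes and the 3 with the largest difference. Some genes that this rule names are not reported here. Dusp1 and Ier2 were named after their values were seen. P-values measure the spread between these arrays. On simulated data with 100 probe sets changed 2-fold and 100 changed 4-fold among 29214, the procedure recovered 81 and 98 for lesions against normal glands, 62 and 93 for age in lesions, 41 and 85 for age in normal glands and 89 and 99 for sex, with 9, 17, 4 and 8 unchanged called. Whether such shares would be recovered on the measured arrays was not tested. On these arrays, 61 probe sets were at least 2-fold lower in lesions and 63 at least 2-fold higher, and limma called 19. Replicate numbers shared by lesions and normal glands were not taken to pair animals. Plots used Python 3.11.15 and matplotlib 3.10.9.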

Additional observations from a re-analysis of the deposited data

Results flagged for a closer look

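Of 30 groups of arrays checked (the 6 genes and 9 marker lists, in lesions and in normal glands), 5 held an array that stood far from the rest by Dixon's test, where chance gives about 1 in 20. Adamts1 in lesion replicate 3 was 6.141, above the next lesion at 5.442. Srf in the same lesion was 6.595, below the next at 7.213. Ccn2 in lesion replicate 4 was 6.392, below the next at 6.854. The mean of the adrenal cortex markers in lesion replicate 1 was 9.572, below the next lesion at 10.881. The mean of the pericyte and smooth muscle markers in normal replicate 3 was 6.905, above the next normal gland at 6.576. No gene passed the test of a difference in its age or sex effect between lesions and normal glands.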

How the results depend on the processing

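The 19 probe sets called between lesions and normal glands numbered 30 with the dimmer probe sets left out, 31 with array weights and 9 at an adjusted p under 0.01. They numbered 3 with a replicate block, 5 at 12 to 13 months and 0 at 21 to 24 months, in males or in females (1384, 2097 and 2078 at an unadjusted p under 0.05), where fewer arrays were tested by limma. The 3 called pathway genes numbered 1 at 12 to 13 months and at an adjusted p under 0.01, and 0 at 21 to 24 months, in males or in females (17, 17 and 21 at an unadjusted p under 0.05). With the replicate block they numbered 2, Egr1 and Nr4a1 (named after its value was seen, -2.54, limma adjusted p = 0.0162). Without the block Nr4a1 differed by -1.88 and was not called (limma adjusted p = 0.258). Fos and Junb lost their calls with the block (limma adjusted p = 0.344 and 0.18). Lesion replicates 5 to 7 share no number with a normal gland. The fit with the block therefore compares only lesion replicates 1 to 4 with normal replicates 1 to 4, so fewer arrays bear on it. Leaving out each array gave 5 to 28 probe sets and 1 to 3 pathway genes. Ccn1 differed by -1.53 in males and -2.55 in females, Adamts1 by -1.84 in females, and Ankrd1 by 0.31 at 21 to 24 months and -0.041 at 12 to 13 months. In each case the cause was not tested. Ccn1 and Adamts1 stayed lower in lesions under all 24 alternatives that gave a value, from -2.55 to -1.53 and from -1.84 to -1.15. In the age and sex comparisons, 0 of 620 values of the 6 genes under alternatives were called by limma, and 37 turned their sign. The replicate numbers shared by both groups were not taken as pairs, since the labels do not say that they pair animals. Every lesion differed in genotype from every normal gland, so genotype cannot decide this. Some same-numbered arrays differed in age and sex, as lesion replicate 3 (male, 21 months) and normal replicate 3 (female, 12 months). Deviations of same-numbered arrays correlated at 0.0728 to 0.209, given here without differently numbered arrays beside them.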
